A study of Homo sapiens with 6 samples.

Results

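Hypoxia and glycolysis genes of BL-2 cells, 36 genes named for their role in the response to low oxygen or in the breakdown of glucose, were followed on each of 6 arrays. A gene was measured by the probe set, a set of short probes for 1 transcript, that carries its symbol alone and has the highest mean over the arrays. By this rule 35 of the 36 genes had a value, among 19775 genes in all, and CA9, an acid-base enzyme of the cell surface, is not analysed here. BL-2 is a long-established human line that grows from Burkitt lymphoma, an aggressive tumour of B cells. The compared groups were 3 untreated control samples and 3 samples kept for 6 h with LPS, the lipopolysaccharide that Gram-negative bacteria carry on their surface. All samples are of the same line and carry no other stated treatment. Whether each sample was a culture of its own is not given, and the p-values rest only on the spread of the 3 samples in a group, which may be technical. The oxygen level, the glucose supply, the cell density and the LPS dose are not given in the sources used here.

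Cells sense oxygen through hydroxylases of the EGLN family, which mark the transcription factor subunit HIF-1 alpha for destruction while oxygen is present. When oxygen is short, HIF-1 alpha is kept, pairs with ARNT and binds short sites with the core letters ACGTG or GCGTG, called hypoxia response elements, near genes for glucose uptake, glycolysis, mitophagy, blood vessel growth and collagen hydroxylation. The same genes also follow other inputs in B cells, among them MYC and the PI3 kinase and mTOR pathway, and in macrophages LPS is known to raise HIF-1 alpha and glycolysis.

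Promoter windows of 6 of the genes are shown because the results turn on them: PFKFB4, P4HA1, BNIP3, ANKRD37 and DDIT4 were lower with LPS or uneven among the controls, and GAPDH followed the arrays instead. Each is the 250 bases before the RefSeq transcript start, 5′ to 3′ on the gene's strand, with every ACGTG or GCGTG on either strand in capitals. On GRCh38.p14 the windows are chr3:48556804-48557053 on the minus strand for PFKFB4, chr10:73096867-73097116 on the minus strand for P4HA1, chr10:131981924-131982173 on the minus strand for BNIP3, chr4:185396591-185396840 on the plus strand for ANKRD37, chr10:72273674-72273923 on the plus strand for DDIT4 and chr12:6535014-6535263 on the plus strand for GAPDH.

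PFKFB4: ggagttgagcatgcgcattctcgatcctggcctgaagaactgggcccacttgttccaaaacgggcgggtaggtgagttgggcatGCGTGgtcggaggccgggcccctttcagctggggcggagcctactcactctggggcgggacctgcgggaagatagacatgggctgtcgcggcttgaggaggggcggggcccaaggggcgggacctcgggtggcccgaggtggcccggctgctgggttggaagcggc

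P4HA1: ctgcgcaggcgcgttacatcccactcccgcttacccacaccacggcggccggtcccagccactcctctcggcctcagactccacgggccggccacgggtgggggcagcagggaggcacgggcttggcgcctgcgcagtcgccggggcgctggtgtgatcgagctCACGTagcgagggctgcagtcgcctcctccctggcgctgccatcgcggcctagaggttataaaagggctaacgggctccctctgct

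BNIP3: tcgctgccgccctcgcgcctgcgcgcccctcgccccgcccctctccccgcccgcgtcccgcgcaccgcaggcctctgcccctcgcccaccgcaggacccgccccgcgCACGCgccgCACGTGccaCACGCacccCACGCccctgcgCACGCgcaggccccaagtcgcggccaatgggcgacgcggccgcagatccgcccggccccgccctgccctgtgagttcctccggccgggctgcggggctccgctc

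ANKRD37: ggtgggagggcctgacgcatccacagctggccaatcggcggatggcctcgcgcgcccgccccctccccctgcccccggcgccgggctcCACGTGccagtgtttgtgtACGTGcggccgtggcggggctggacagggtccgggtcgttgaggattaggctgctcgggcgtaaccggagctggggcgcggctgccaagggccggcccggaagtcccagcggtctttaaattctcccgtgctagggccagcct

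DDIT4: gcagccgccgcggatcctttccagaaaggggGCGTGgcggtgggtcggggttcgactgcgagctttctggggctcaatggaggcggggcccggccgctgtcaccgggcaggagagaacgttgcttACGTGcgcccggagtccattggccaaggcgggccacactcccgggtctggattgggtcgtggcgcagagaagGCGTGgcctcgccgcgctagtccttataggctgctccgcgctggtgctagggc

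GAPDH: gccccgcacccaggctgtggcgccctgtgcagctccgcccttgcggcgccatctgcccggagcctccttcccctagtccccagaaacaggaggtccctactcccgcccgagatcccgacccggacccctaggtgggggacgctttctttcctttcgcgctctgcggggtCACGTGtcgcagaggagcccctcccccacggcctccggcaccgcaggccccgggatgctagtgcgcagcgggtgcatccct

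Of the 36 genes, 32 had at least 1 such window, and 27 of the 32 held a core in a window, or 84.4%, against 47.4% of all 27305 genes with a window. Of the 32 genes, 21 had 1 window and 11 had several, and HK1 and PFKM had 7 each. By window the share was 60.7% of 56, against 43.2% of all 35116. The windows of these genes were also richer in G and C, with a median of 68.6% against 58% for all windows, and the cores are themselves mostly G and C. BNIP3 holds 1 core on the gene's strand and 5 on the other, and DDIT4 holds 3 on its own strand. The palindrome CACGTG, which reads as a core on both strands, is also the E-box bound by MYC and MAX. It is present in BNIP3, ANKRD37 and GAPDH and in 8 of the 56 windows, against 6.34% of all windows. P4HA2, SLC2A1, PGAM1, PKM and EGLN3 had a window and no core. A match is a description of the letters, not a bound site.

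The 6 arrays differed in ways that touch these genes. Values are the deposited log2 values, 1 per probe set and array, and each probe set has its own scale, so levels are compared between arrays and not between genes. Transcripts added to every hybridisation in known form parted the arrays into set A (control 1, LPS 1 and LPS 2, mean 10.24 ± 0.045, SD, n = 3) and set B (control 2, control 3 and LPS 3, mean 10.57 ± 0.051, SD, n = 3). The sets are therefore uneven between the groups. For the genes the results turn on, the differences within each set are given beside the pooled ones. Each of these rests on a lone array, the control of set A or the LPS array of set B. A model with array set as a block takes the LPS difference to be the same in both sets. The 3′ minus 5′ value of ACTB, a sign of RNA quality, also parted with the sets, at 0.37 to 0.41 on the arrays of set A against 0.44 to 0.48 on those of set B, while that of GAPDH lay between 0.13 and 0.16 on all arrays. Control 2 was the highest of the 6 arrays for 19 of the 35 genes, where 18.9% of all tested probe sets had it highest. The 8 measured B cell markers had means of 8.95 to 13.02, and 6 monocyte, 6 T and NK cell, 6 fibroblast or epithelial and 4 erythroid or platelet markers had means of 5.85 to 7.99, with array medians of 6.42 to 6.47. The mean over the B cell markers lay between 10.55 and 10.65 in controls and between 10.38 and 10.45 in LPS samples. The part of these shifts in the results below was not tested.

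With LPS, most hypoxia-induced genes had lower values, and most core glycolytic enzymes had overlapping groups. None of the 35 genes passed the limma test over all probe sets (Benjamini-Hochberg adjusted p under 0.05, n = 3 per group), where 0.264% of all 54613 probe sets passed. At an unadjusted p under 0.05 there were 12 of the 35, all lower with LPS, where 8.08% of all probe sets had such a p in either direction. Of the 35, 30 had a lower mean with LPS (48.2% of all probe sets), and the median difference was -0.11 on the log2 scale, against 0.0029 over all probe sets. This tally moved with the arrays: 20 of the 35 were lower within set A (median -0.01) and 27 within set B (median -0.10), and the median was -0.05 with array set as a block. Leaving out control 2 gave a median of -0.03, leaving out LPS 1 -0.06 and leaving out control 1 -0.18. Over the 14 switches and hypoxia-induced genes the median was -0.49, with -0.05 in set A, -0.71 in set B and -0.39 with the block. In 8 genes all 3 LPS values lay below all 3 control values, which held for 6.38% of all probe sets. When array set was added to the model as a block, 5 genes passed, all lower with LPS: PFKFB4, KDM3A, P4HA1, BNIP3 and ENO2. In that fit 1.34% of all probe sets passed. That count is 0 when LPS 3 is left out and between 5 and 8 when any other single array is left out. Without LPS 3 the fit rests on set A, where KDM3A gave -0.34 and BNIP3 -0.29, against -0.63 for each with all arrays. The cause of the drop was not tested. Without the block, leaving out control 1 gave 8 genes and leaving out any other array gave 0. In bulk RNA, fewer cells with a transcript and less of it per cell cannot be told apart.

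The switches of glycolytic flux include the bifunctional enzymes PFKFB3 and PFKFB4, which set the level of fructose 2,6-bisphosphate, the activator of phosphofructokinase, and PDK1, the kinase that turns off pyruvate dehydrogenase. PFKFB4 read 7.15, 7.92 and 7.52 in controls 1 to 3 and 6.71, 6.95 and 6.80 in LPS 1 to 3. Every LPS array lay below every control, and the controls were spread more widely than the LPS arrays. The difference was -0.71 (SE 0.14, 95% interval from -1.01 to -0.41, limma adjusted p = 0.0556), a level 1.63-fold higher in controls. It was -0.32 in set A against -0.92 in set B, and PFKFB4 fell by 0.62 with array set as a block (limma adjusted p = 0.00212). Its other probe set, at a mean of 6.47 and so near the array medians, gave -0.03.

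PFKFB3 read 7.68, 8.34 and 8.01 in controls and 7.60, 7.62 and 7.52 with LPS. Its LPS arrays again lay below all controls, but control 1 was close to them. The difference was -0.43 (SE 0.12, limma adjusted p = 0.266), with -0.07 in set A against -0.65 in set B. PDK1 read 9.10, 9.27 and 8.84 in controls and 9.19, 8.99 and 8.84 with LPS, so that the groups overlapped throughout. Its difference of -0.06 had an interval from -0.31 to 0.19, with -0.01 in set A against -0.22 in set B.

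Among genes of mitophagy, growth and stress, BNIP3 and BNIP3L encode related receptors that deliver mitochondria to autophagy. BNIP3 read 9.70, 10.74 and 10.19 in controls and 9.35, 9.47 and 9.49 with LPS. The LPS arrays lay together below all controls, whose own range was 1.05. The difference was -0.78 (SE 0.18, interval from -1.17 to -0.38, limma adjusted p = 0.133), or 1.71-fold higher in controls. It was -0.29 in set A against -0.98 in set B, and BNIP3 fell by 0.63 with array set as a block (limma adjusted p = 0.00692). Its other probe set gave -0.75 (limma adjusted p = 0.06) and also passed with the block (limma adjusted p = 0.00189).

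BNIP3L read 9.37, 10.34 and 9.88 in controls and 9.22, 9.41 and 9.29 with LPS. Control 1 lay among the LPS arrays, while controls 2 and 3 lay above them. The difference was -0.56 (SE 0.17, limma adjusted p = 0.327), with -0.06 in set A against -0.82 in set B. Its other probe set gave -0.49 and passed only with array set as a block (limma adjusted p = 0.0384).

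DDIT4, also called REDD1, restrains the growth kinase complex mTORC1 under stress. It read 8.89, 10.61 and 10.03 in controls and 8.87, 9.43 and 8.74 with LPS, with the largest difference of the 35 genes and the widest spread among controls. Control 1 matched LPS 1, and LPS 2 lay above both. The difference was -0.83 (SE 0.31, interval from -1.49 to -0.17, limma adjusted p = 0.467). Its sign was not shared by the array sets, which gave 0.26 in set A against -1.58 in set B, and it gave -0.66 with the block (limma adjusted p = 0.215). Without control 2 the pooled difference was -0.45 (limma adjusted p = 0.883) and without control 1 it was -1.31 (limma adjusted p = 0.00241). NDRG1, a gene of growth arrest, lay between 6.77 and 7.01 on all arrays, with a difference of 0.02 and overlapping groups.

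**Figure D1:**
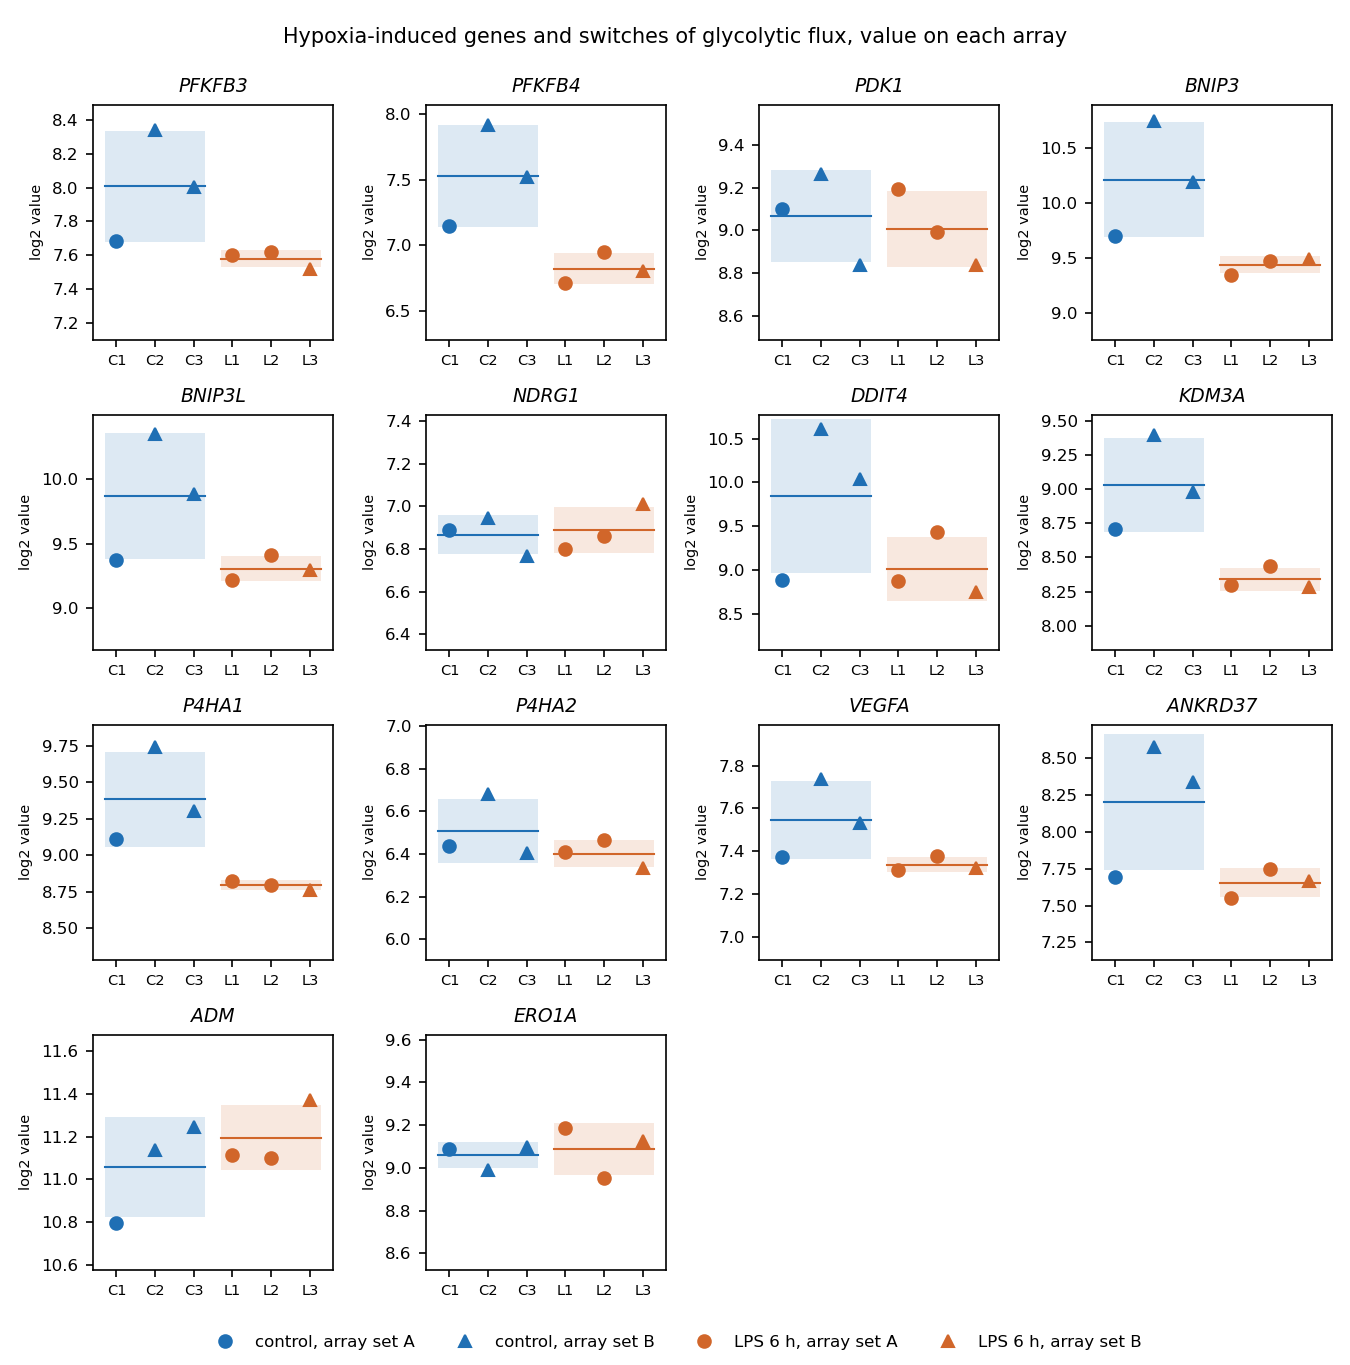
Log2 value on each array (C1 to C3 control, L1 to L3 LPS 6 h) for the 14 measured switches and hypoxia-induced genes; lines are group means, bands the mean ± SD (n = 3), circles array set A and triangles set B, and each panel has its own y axis. In BNIP3, KDM3A, P4HA1, PFKFB3 and PFKFB4 the controls run from control 2 down to control 3 and control 1, and all LPS arrays lie below; NDRG1, PDK1, P4HA2 and ERO1A show overlapping groups.

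Among the other hypoxia-induced genes, KDM3A encodes a histone H3 lysine 9 demethylase. It read 8.71, 9.40 and 8.98 in controls and 8.30, 8.44 and 8.28 with LPS, with no overlap. The difference was -0.69 (SE 0.13, interval from -0.98 to -0.40, limma adjusted p = 0.0538), or 1.61-fold higher in controls. It was -0.34 in set A against -0.91 in set B, and KDM3A fell by 0.63 with array set as a block (limma adjusted p = 0.00213). Its other probe set, at a mean of 5.81, gave 0.07.

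P4HA1 and P4HA2 encode catalytic subunits of the enzyme that hydroxylates proline in collagen. P4HA1 read 9.11, 9.75 and 9.30 in controls and 8.83, 8.79 and 8.76 with LPS. The 3 LPS arrays lay within 0.07 of each other and below every control. The difference was -0.59 (SE 0.13, interval from -0.87 to -0.32, limma adjusted p = 0.0914), with -0.30 in set A against -0.77 in set B, and P4HA1 fell by 0.53 with array set as a block (limma adjusted p = 0.00716). A probe set at a mean of 5.75 gave 0.01. P4HA2 lay between 6.33 and 6.68 on all arrays, with a difference of -0.11 (interval from -0.26 to 0.05). Its other probe sets, at means of 6.36 and 6.20, went the other way, at 0.11 and 0.05.

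ANKRD37, an ankyrin repeat protein known as a direct HIF-1 target, read 7.69, 8.58 and 8.34 in controls and 7.55, 7.75 and 7.67 with LPS. Control 1 lay among the LPS arrays, and controls 2 and 3 stood apart above them. The difference was -0.55 (SE 0.16, limma adjusted p = 0.284), with -0.04 in set A against -0.79 in set B. VEGFA, the vascular growth factor, had 4 probe sets. By the brightest it gave -0.21 (SE 0.086, limma adjusted p = 0.54; -0.03 in set A, -0.31 in set B), and by the next, which read 7.10, 8.01 and 7.73 in controls and 6.91, 7.25 and 6.90 with LPS, it gave -0.59 (SE 0.17, limma adjusted p = 0.253). The remaining probe sets, at means of 6.71 and 6.34, gave -0.10 and -0.08. The size of the VEGFA difference therefore depends on the probe set, and none of them passed, with or without the block.

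ADM, the vasodilator peptide adrenomedullin, went the other way in its values. It read 10.79, 11.14 and 11.24 in controls and 11.11, 11.10 and 11.37 with LPS, a difference of 0.14 (interval from -0.13 to 0.40, limma adjusted p = 0.851). Within each set LPS lay above control, by 0.31 in set A and 0.18 in set B. ERO1A, an oxidase of the endoplasmic reticulum that drives disulfide formation, gave 0.03 with an interval from -0.16 to 0.22.

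The controls themselves differed more than the treated arrays for this class. Over the 14 measured switches and hypoxia-induced genes, the median range from lowest to highest array was 0.65 among controls and 0.20 among LPS arrays, against 0.13 and 0.13 over all tested probe sets. All tested probe sets were not matched to these genes by level, and values near the floor may compress differences. The controls had the wider range in 12 of the 14 genes, where 51.9% of all probe sets did. In 5 of the 35 genes, PFKFB3, PFKFB4, BNIP3, KDM3A and P4HA1, the order was control 2, then control 3, then control 1, then all LPS arrays. That order was held by 1.4% of all probe sets. The genes were chosen with earlier results of these data known, so these shares are a description and not a test. Relative to each gene's own mean, the median over the 14 genes was 0.60 in control 2, 0.21 in control 3, -0.05 in control 1, and -0.23, -0.15 and -0.27 in LPS 1 to 3. The labels give no difference between the controls. Without control 2 the differences were -0.51 for PFKFB4, -0.51 for KDM3A, -0.41 for P4HA1 and -0.51 for BNIP3, with limma adjusted p from 0.136 to 0.319. With array set as a block and control 2 left out, an alternative chosen once the values were known, they were between -0.50 and -0.40, with limma adjusted p from 0.000907 to 0.00633.

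**Figure D2:**
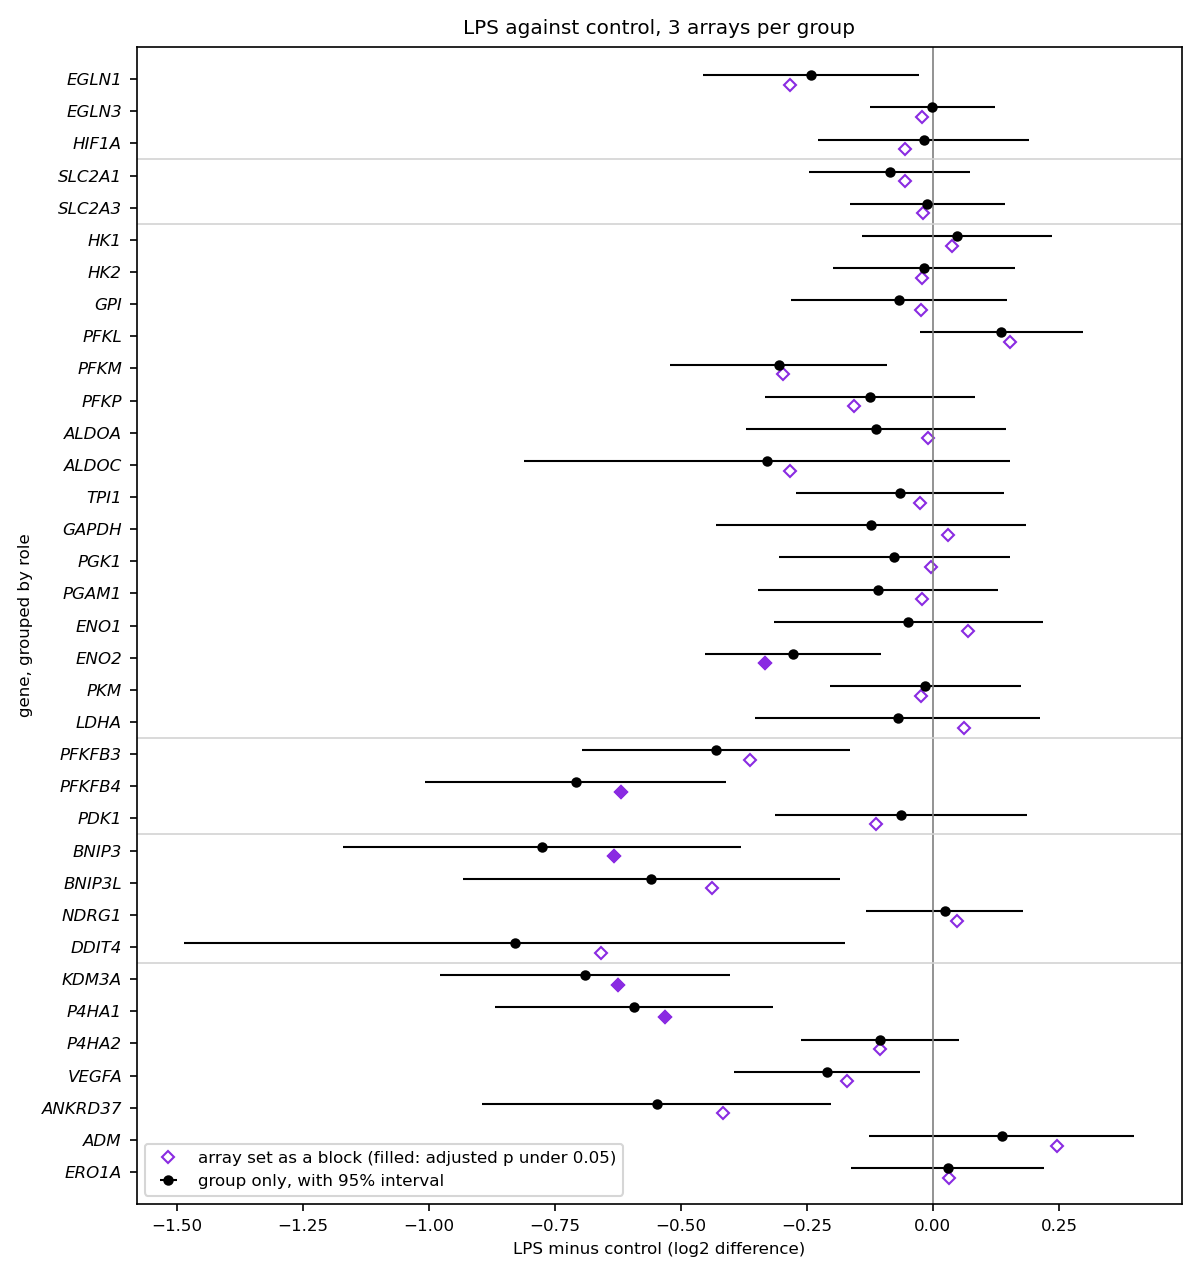
LPS minus control on the log2 scale for the 35 genes, grouped by role; black points are the model with group only with 95% intervals (3 arrays per group), and purple diamonds the model with array set as a block, filled where the limma adjusted p is under 0.05. The filled diamonds are ENO2, PFKFB4, BNIP3, KDM3A and P4HA1, and most glycolytic enzymes sit near 0.

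Among transcripts of HIF and its hydroxylases, HIF1A and EGLN3 differed little between the groups. EGLN1 had lower values with LPS by its brightest probe set, which did not pass. HIF1A, the regulated subunit, read 10.80, 10.56 and 10.78 in controls and 10.69, 10.76 and 10.64 with LPS, a difference of -0.02 (interval from -0.23 to 0.19) with overlapping groups. Its protein, which is what the hydroxylases control, was not measured. EGLN1, the main hydroxylase, read 9.66, 9.77 and 9.54 in controls and 9.49, 9.50 and 9.25 with LPS, all LPS values lying below all controls. The difference was -0.24 (SE 0.10, limma adjusted p = 0.548), with -0.16 and -0.41 within sets A and B. Another of its 4 probe sets gave -0.22 and passed with array set as a block (limma adjusted p = 0.026), while the remaining ones gave -0.10 and -0.0069 and did not pass with the block (limma adjusted p = 0.501 and 0.921). EGLN3, a hydroxylase that is itself induced by hypoxia, stayed between 6.54 and 6.66 on all arrays, close to the array medians.

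The glucose transporters gave no difference beyond their spread. SLC2A1, which encodes GLUT1, read 7.38, 7.61 and 7.50 in controls and 7.37, 7.45 and 7.42 with LPS (difference -0.09, interval from -0.25 to 0.07). SLC2A3, which encodes GLUT3, lay between 6.36 and 6.56 on all arrays, near the array medians, and was the 1 gene of the 35 that a filter at the median level of all probe sets removes.

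The 16 glycolytic enzymes had a median difference of -0.07, and 14 of them a lower mean with LPS. Within set A 5 of the 16 were lower (median 0.03) and within set B 11 (median -0.06), and the median of the 16 in the fit with the block was -0.02. The hexokinases HK1 and HK2, which take the opening step, gave 0.05 and -0.02 with SEs of 0.088 and 0.084. GPI, the isomerase that follows, gave -0.07. Of the 3 phosphofructokinase subunits, which form the committed step, PFKM read 10.31, 10.16 and 10.25 in controls and 10.02, 9.74 and 10.03 with LPS. Its groups did not overlap and its difference was -0.31 (SE 0.10, limma adjusted p = 0.365), with -0.43 in set A against -0.17 in set B. PFKL read 8.44, 8.48 and 8.48 in controls and 8.57, 8.59 and 8.64 with LPS, and gave 0.14 (SE 0.075, limma adjusted p = 0.704). By the brightest probe sets, PFKL was the only one of the 35 genes with all LPS values above all controls. Its other probe set gave 0.01. PFKP gave -0.12 (interval from -0.33 to 0.08), and its other probe set, at a mean of 6.22, gave 0.11.

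ENO2, an enolase first known from neurons, read 7.91, 7.83 and 7.79 in controls and 7.65, 7.64 and 7.41 with LPS. Unlike in PFKFB4, KDM3A, P4HA1 and BNIP3, its controls lay within 0.12 of each other and control 1 was the highest. The difference was -0.28 (SE 0.081, interval from -0.45 to -0.10, limma adjusted p = 0.28), with -0.26 in set A against -0.40 in set B. ENO2 fell by 0.33 with array set as a block (limma adjusted p = 0.0143), while ENO1, the general enolase, gave -0.05 and 0.07 in the same models. ALDOC, the aldolase isoform of brain, read 8.05, 9.03 and 8.15 in controls and 7.77, 8.57 and 7.90 with LPS. Control 2 and LPS 2 stood above the others of their group, and the difference of -0.33 had an SE of 0.22 (limma adjusted p = 0.779), with 0.12 in set A against -0.69 in set B. ALDOA, the general isoform, gave -0.11 (SE 0.12).

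The abundant lower-pathway enzymes were higher in array set B in both groups, the set with the higher ACTB 3′ minus 5′ values, whose part in this was not tested. GAPDH, which oxidises glyceraldehyde 3-phosphate, read 13.85, 14.29 and 14.28 in controls and 13.84, 13.88 and 14.33 with LPS. The 3 arrays of set B stood together above the 3 of set A, whatever their treatment. Set B exceeded set A by 0.46 with group in the fit (SE 0.047, limma adjusted p = 1.23e-06), and LPS minus control was 0.01 in set A against 0.04 in set B. LDHA, which makes lactate from pyruvate, read 13.37, 13.82 and 13.78 in controls and 13.46, 13.47 and 13.83 with LPS, and ENO1 read 12.84, 13.24 and 13.21 in controls and 12.93, 12.95 and 13.26 with LPS. Both showed the same split, at 0.40 and 0.35 between the sets.

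ALDOA (0.31), PGAM1, the phosphoglycerate mutase (0.26), and PGK1, a kinase that makes ATP (0.22), were also higher in set B by their brightest probe sets. Further PGK1 probe sets gave set differences of 0.17, 0.11, -0.02, 0.24 and -0.04, with limma adjusted p from 0.0574 to 0.95. Those of ALDOA gave 0.31 (limma adjusted p = 0.00158) and, at a mean of 9.94, 0.04 (limma adjusted p = 0.865). For PKM, the pyruvate kinase, the arrays lay between 12.04 and 12.13 and the set difference was -0.03. In all, 9 of the 35 genes passed as higher in set B (limma, 1.22% of all probe sets did) and 0 as lower. They were GAPDH, LDHA, ENO1, ALDOA, PGAM1, PGK1, BNIP3, ANKRD37 and ADM. For BNIP3 and ANKRD37 the arrays of set B did not all lie above those of set A. BNIP3 read 9.49 in LPS 3, against 9.35 and 9.47 in LPS 1 and LPS 2. ANKRD37 read 7.67 in LPS 3, against 7.55 and 7.75. TPI1, the triose phosphate isomerase, gave 0.12 and GPI 0.13, neither passing. With quantile normalisation 2 of the 9 passed, ANKRD37 and ADM, and none of the enzymes. Without control 1, where only LPS arrays span both sets, 3 of the 35 passed and the median set difference over the 35 was -0.01, against 0.12 with all arrays.

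Very bright probe sets behaved in this way across the array. Of the 558 probe sets with a mean of at least 12, 62% passed as higher in set B and their median set difference was 0.25, against -0.02 over all probe sets. Of the 7 genes here with such a mean, all of them glycolytic enzymes, 6 passed. The part of brightness in the set difference of these enzymes was not tested further.

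**Figure D3:**
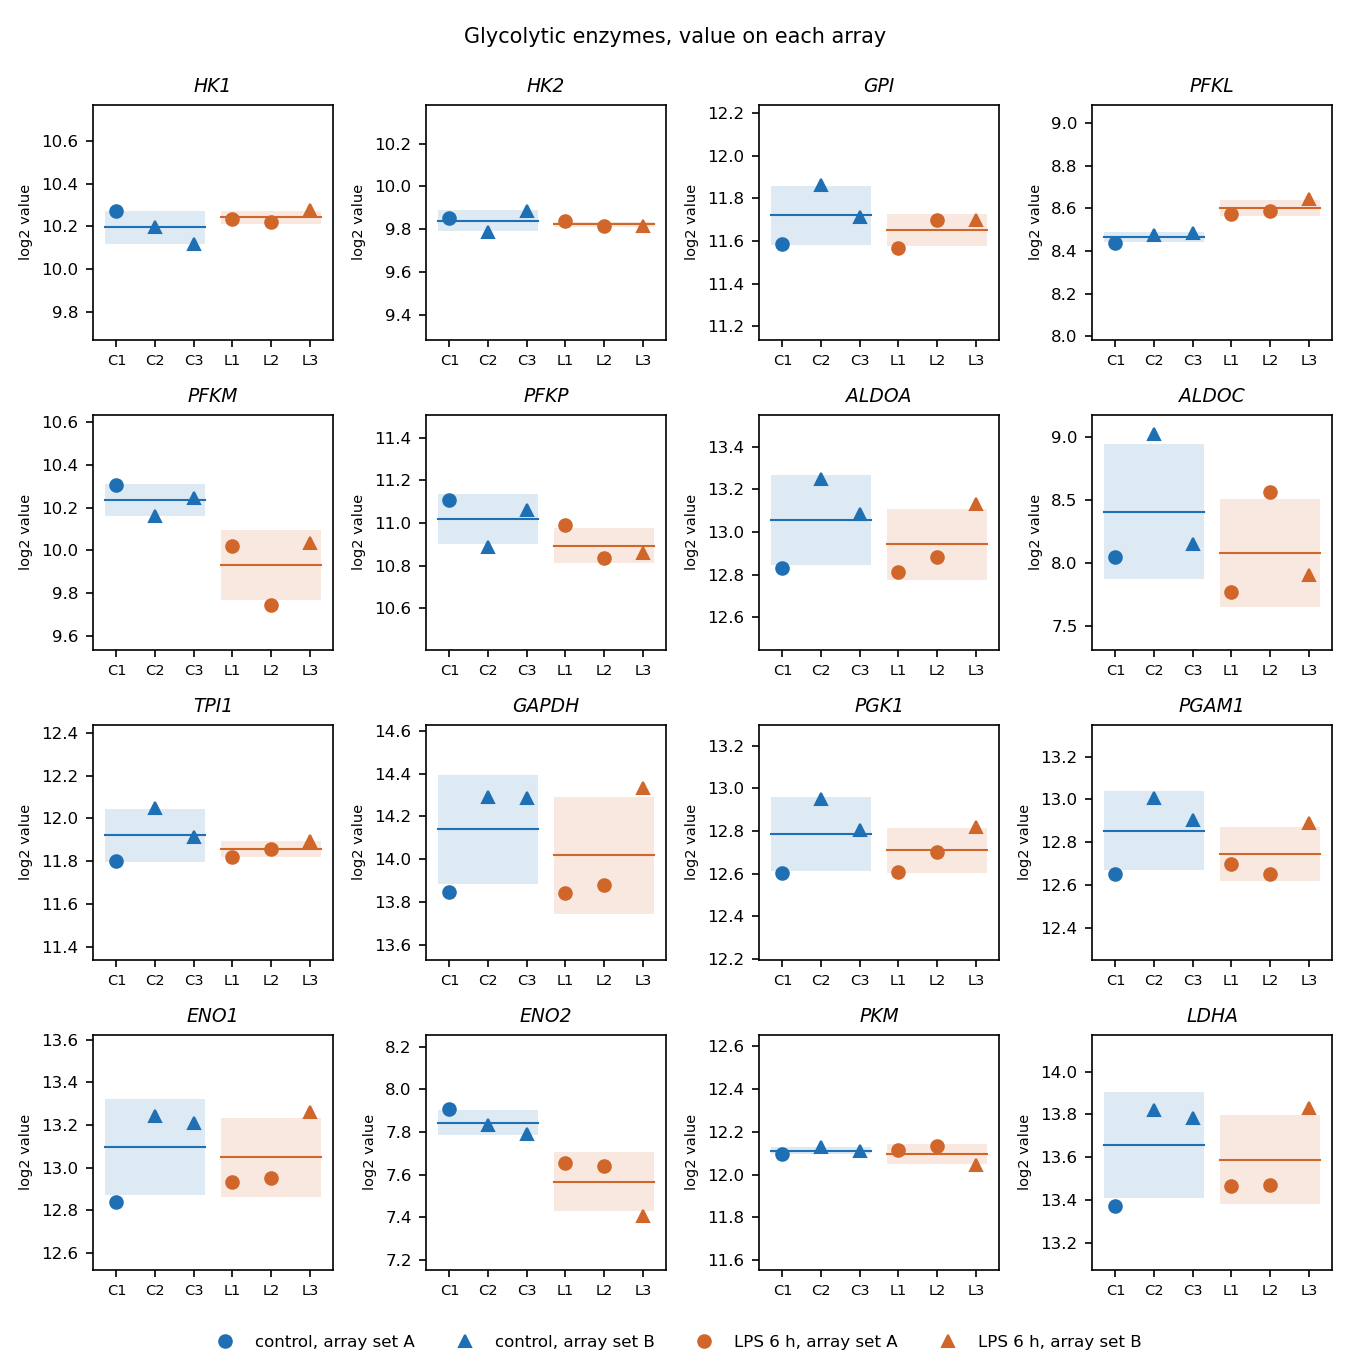
Log2 value on each array (C1 to C3 control, L1 to L3 LPS 6 h) for the 16 glycolytic enzymes; lines are group means, bands the mean ± SD (n = 3), circles array set A and triangles set B, and each panel has its own y axis. In GAPDH, LDHA and ENO1 the triangles lie together above the circles in both groups, while in ENO2 and PFKM the LPS arrays lie below all controls.

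The LPS and set differences of each gene, taken side by side, differ in kind over the list. GAPDH, LDHA, ENO1, ALDOA, PGAM1 and PGK1 had set differences of 0.22 to 0.46 and LPS differences between -0.02 and 0.07 with the set in the fit. PFKFB4, KDM3A, P4HA1 and BNIP3 had LPS differences of -0.63 to -0.53 in that fit, with set differences of 0.18 to 0.43. The LPS 3 array, which lies in set B, was the highest of all arrays for GAPDH, LDHA and ENO1, and lay below every control for the 4 genes of the latter type.

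**Figure D4:**
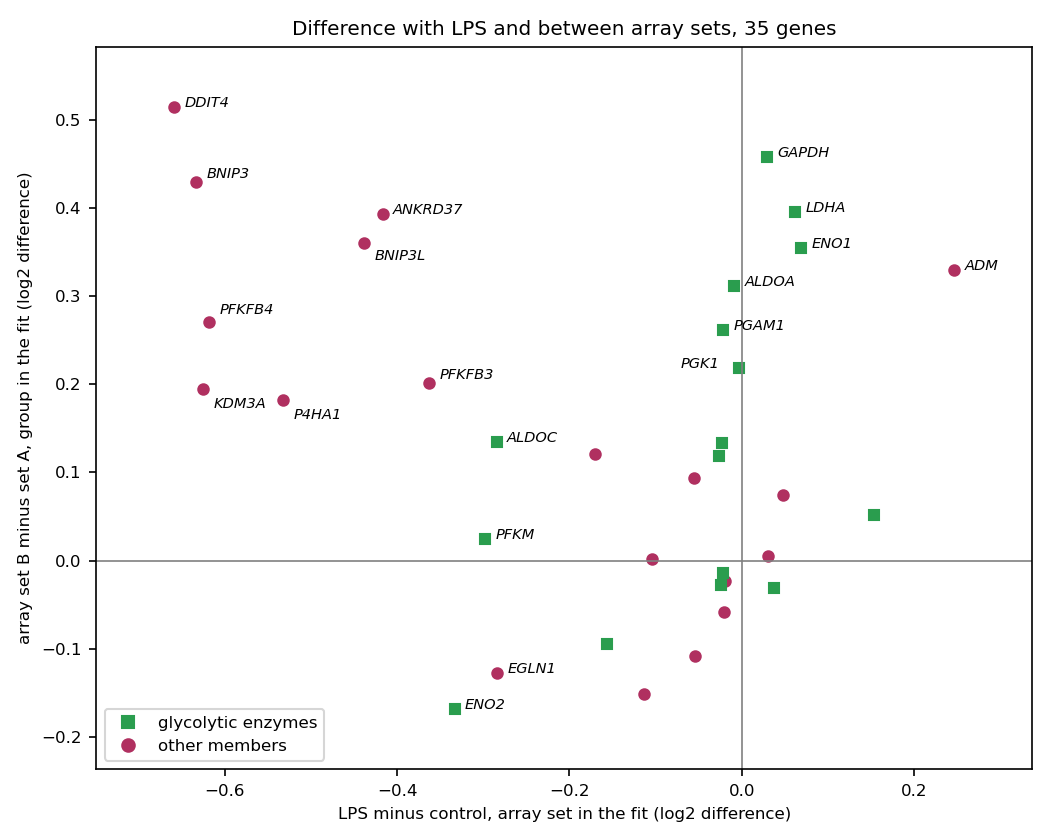
For each of the 35 genes, the difference LPS minus control (x axis, log2) against array set B minus set A (y axis, log2), both from 1 model with group and array set; squares are glycolytic enzymes and circles the other genes. GAPDH, LDHA and ENO1 lie high near x = 0, while PFKFB4, KDM3A, P4HA1 and BNIP3 lie to the left, between -0.63 and -0.53.

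Other genes of the pathway were read from further lists. Like the members, these lists were chosen with earlier results of these data known. The shares given below for them are a description and not a test. Of 15 genes of the HIF machinery, among them VHL, ARNT, EP300 and CITED2, 0 passed in either direction by limma and 0 had an unadjusted p under 0.05. Their median difference was -0.04, and the smallest p-values were those of EGLN2, a hydroxylase (0.10), CITED2, an inhibitor of HIF (-0.17), and FOXO3, a forkhead factor (-0.14). Of 33 measured further HIF targets 0 passed. An unadjusted p under 0.05 was found for 11, 10 of them lower, where 8.08% of all probe sets had such a p in either direction. In 10 of the 33 all LPS values lay below all controls, which held for 6.38% of all probe sets. The median over the 33 was -0.11. MXI1, a MYC antagonist, read 9.73, 9.85 and 9.62 in controls and 9.33, 9.30 and 9.24 with LPS, -0.44 in all (limma adjusted p = 0.0616), and passed with array set as a block (limma adjusted p = 0.00233). HILPDA, a lipid droplet protein, read 9.77, 10.57 and 9.90 in controls and 9.44, 9.50 and 9.50 with LPS (-0.60, limma adjusted p = 0.193), with its controls in the same order as those of KDM3A and all LPS arrays below them, and passed with the block (limma adjusted p = 0.0274). With the block 3 of these targets passed, MXI1, HILPDA and KDM4C, a histone demethylase, where 1.34% of all probe sets did. VLDLR, a lipoprotein receptor, gave -0.25 (limma adjusted p = 0.137).

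Genes that carry glucose carbon onward had medians close to 0. Of 12 measured genes of lactate and pyruvate handling, 6 of the pentose phosphate pathway and 12 of the citric acid cycle, 0 passed by limma. An unadjusted p under 0.05 was found for 3, 0 and 1 of them, where 8.08% of all probe sets had such a p. Their median differences were -0.02, 0.0022 and 0.03. The smallest p-values belonged to MPC1, a carrier of pyruvate into mitochondria, at 0.21 (limma adjusted p = 0.516), TALDO1, a transaldolase, at -0.18 (limma adjusted p = 0.754) and IDH3A, an isocitrate dehydrogenase subunit, at 0.24 (limma adjusted p = 0.502).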

How the data were processed

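The deposited table gave 1 value per probe set and array, taken as log2 expression because all values lay between 5.46 and 14.81; the base is inferred, and the authors' background correction, summary and normalisation are not given in the sources used here. Per the labels' protocols, RNA was column-purified and biotin-labelled by in vitro transcription. No detection calls were used, and values near the floor may compress differences. Without the 62 control probe sets of the platform, 54613 were tested with R 4.3.3 and limma 3.58.1 (group as the term, empirical Bayes with intensity trend, two-sided, Benjamini-Hochberg over all probe sets, threshold 0.05, 95% intervals). Array sets came from 18 hybridisation control probe sets, parted at the widest gap of 0.22, against 0.081 for the next. Symbols came from the platform annotation and matched RefSeq on GRCh38.p14, which also gave the promoter windows. The members, lists and tests were chosen with earlier results of these data known. Named were all members, and in other lists the genes that passed or had the 3 smallest p; of these only the leading ones are printed. The limma step with group only was tested on simulated arrays, which held no array sets. Alternatives were other scalings, filters, variance priors, array weights, probe set rules, blocks and leaving out each array. The number of arrays limits the precision, with a median SE of 0.063.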

Additional observations from a re-analysis of the deposited data

How the results depend on the processing

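Each of the 35 genes was recomputed under 19 to 21 alternatives, since some probe set rules and the filter leave a gene without a value. The sign of the LPS difference held in all of them for 13 genes and changed in at least 1 for 22, without reversing a call, and 10 genes passed in at least 1. Of all probe sets, 144 passed for LPS, and 292 with quantile normalisation, 309 with array weights and 734 with array set as a block. Of the 35 genes 0 passed, and 2 did with quantile normalisation, 2 with median centring, 4 with array weights, 1 without the _x_at and _s_at probe sets and 5 with array set as a block. Of the 78 other pathway genes 0 passed, and 1 did with the filter at the median level, with quantile normalisation, without the intensity trend, with array weights or with means over probe sets, and 3 with array set as a block. For array set, 2481 probe sets passed and 1445 with quantile normalisation; 9 genes passed, and 2 with quantile normalisation, 1 without the _x_at and _s_at probe sets and 3 with means over probe sets.

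Leaving out 1 array at a time gave 10 to 374 probe sets, 0 to 8 of the 35 genes and 0 to 2 other pathway genes for LPS, and 736 to 2498 probe sets, 3 to 11 genes and a median of -0.0113 to 0.20 for array set. With the set block as well, LPS gave 744 probe sets without control 2, 629 without control 3, 397 without LPS 1, 695 without LPS 2 and at the least 102. Of the 35 genes it then gave 8 without control 1 or LPS 2, 6 without control 2, 5 without control 3 or LPS 1 and 0 without LPS 3, and of the other pathway genes 4 without control 2 or 3, 2 without LPS 2 and 1 without LPS 1. Where a lone array is left in a set or group, it is assumed to vary like the others. The fits that leave out an array with the set block were chosen after seeing the data. The causes were not tested.

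Samples with the same replicate number did not all deviate together (r = 0.442, -0.04 and 0.232), so the numbers were not taken as pairs. With the replicate block 498 probe sets, 7 of the 35 genes and 2 other pathway genes passed.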
